A study of Mus musculus with 24 samples.

Results

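The Myc peaks of tet-Myc liver were set against those of wild-type liver to learn which sites were called in both genotypes and which in tet-Myc only. Peaks on chromosome Y and on unplaced contigs were left out. This gave 32589 tet-Myc peaks and 4602 wild-type peaks, 37191 in all, out of 80921 Myc peaks in the 4 Myc libraries and 665214 entries in the 23 peak lists of the series. A tet-Myc peak was called prebound where it overlapped a wild-type Myc peak by at least 1 bp, and newly bound otherwise. These names stand for overlap between mice of different genotypes, since no Myc library came from before induction. As a second criterion, the summits of both peaks had to lie within 500 bp.

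Both groups were mice carrying R26-rtTA, the reverse tetracycline transactivator at the Rosa26 locus, and both were fed doxycycline-containing food for 2 days. The tet-Myc mice carried in addition a doxycycline-inducible Myc transgene, which the wild-type mice lacked. The tet-YAP and tet-Myc/YAP mice, used here only for reference, carried an inducible YAP transgene alone or together with the Myc one. Chromatin from dissected liver was fixed with formaldehyde and immunoprecipitated with 1 antibody against Myc, the same in both genotypes. The Rosa26 locus is active in most cell types, so induction was not restricted to hepatocytes by the transactivator. The sources used here do not give age, sex or the number of animals behind a library. Each genotype had 1 library. Values therefore carry no error between replicates, no difference between genotypes was tested, and the ranges in brackets are Wilson 95% intervals that cover the counting of sites only. In whole liver, a site bound in more cells and a site bound more heavily in each cell cannot be told apart. Sites are given by position in the mm9 build, and the identity of the tissue was not checked against marker genes for want of an mm9 gene annotation.

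Myc is a transcription factor of the basic helix-loop-helix leucine zipper class. It binds DNA as a dimer with MAX, prefers E-box sequences, and occupies mainly promoters that are already open and carry active histone marks. When its level rises, it is known to occupy more of these promoters and, in addition, distal elements. H3K4me3 marks promoters, H3K4me1 marks enhancers and the flanks of promoters, and H3K27ac marks active promoters and enhancers. TEAD proteins are the DNA-binding partners through which YAP attaches to chromatin. Myc peaks that met an H3K4me3 region of wild-type liver were termed promoter-like. Those that met H3K4me1 or H3K27ac of wild-type liver without H3K4me3 were termed distal, and the remainder, which met none of the 3 marks, unmarked.

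The 2 Myc lists differed in the fragment size behind the calls, and its part in the values that follow was not tested. The wild-type list rested on 29.7 M tags and the tet-Myc list on 20.7 M. The fragment size estimated by the peak caller was 51 bp in wild-type, equal to the tag size, and 330 bp in tet-Myc. The median peak width was 80 bp in wild-type and 670 bp in tet-Myc. The pileup, the height of overlapping fragments at the summit, ran from 7 to 101 with a median of 11 in wild-type and from 15 to 654 with a median of 34 in tet-Myc. Pileup and fold enrichment over the control were therefore compared within a list only.

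Few of the sites bound in tet-Myc liver were also called in wild-type liver, and those few were mostly promoters. Of the 32589 tet-Myc peaks, 2769 were prebound by overlap, which is 8.5% (8.20 to 8.80). The summit criterion found 2612, or 8.01% (7.73 to 8.31). Both criteria held for 2559 peaks, overlap alone for 210 and summit distance alone for 53, so the 2 criteria chose largely the same peaks. Other settings moved the share further, to 1.20% when tet-Myc summits had to fall within a wild-type peak, to 0.745% with peaks of −log10 q of at least 10 in both lists, and to 29.4% with the tet-Myc list cut by pileup to the length of the wild-type list. Of the prebound peaks, 2535 were promoter-like (91.5%, 90.5 to 92.5), 223 distal and 11 unmarked. Of the 29820 newly bound peaks, 18353 were promoter-like (61.5%, 61.0 to 62.1), 10348 distal (34.7%, 34.2 to 35.2) and 1119 unmarked (3.75%, 3.54 to 3.97). Read the other way, 12.1% of the promoter-like tet-Myc peaks were prebound (11.7 to 12.6), against 2.11% of the distal ones (1.85 to 2.40) and 0.973% of the unmarked ones (0.544 to 1.73).

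The median distance from a newly bound summit to the nearest wild-type summit was 136408 bp. Within 1000 bp lay 0.825% of the newly bound peaks (0.728 to 0.934), within 10000 bp 9.62% (9.29 to 9.96) and within 100000 bp 43.3% (42.7 to 43.9). These distances are a description only, since newly bound peaks overlap no wild-type peak by definition and the wild-type list is short.

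Prebound sites were stronger than newly bound sites in tet-Myc liver, at both promoters and distal elements. At promoter-like sites, the median fold enrichment over the control in tet-Myc was 15.4 for prebound peaks (quartiles 10.4 and 24.1) and 8.51 for newly bound peaks (6.31 and 12.6). At distal sites it was 8.91 for prebound peaks (6.86 and 14.5) and 7.13 for newly bound peaks (5.76 and 9.80). The 1119 newly bound unmarked peaks were the weakest class, with a median of 6.58. The quartile ranges of prebound and newly bound peaks overlapped in every class, so the difference was one of the distributions and not of each site. Prebound promoter-like peaks were also wider, with a median of 1208 bp against 731 bp, and a wider peak has more room to meet a wild-type peak. The part of width in the share called prebound was not tested.

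**Figure D1:**
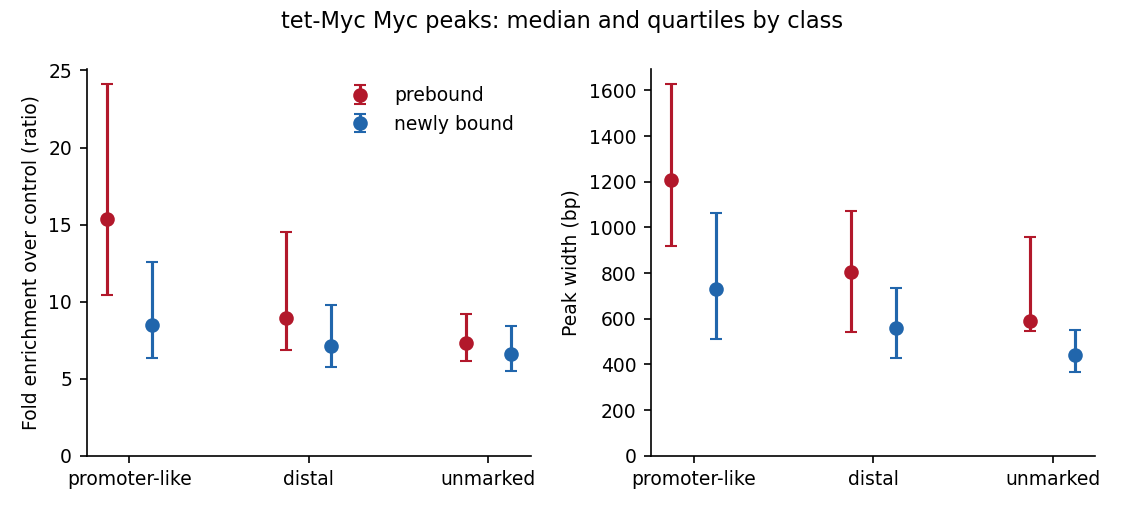
Median (points) and quartiles (bars) of fold enrichment over the control (left, ratio) and of peak width in bp (right) for tet-Myc Myc peaks, prebound or newly bound, at promoter-like, distal and unmarked sites of 1 library. Prebound promoter-like peaks had the highest medians, 15.4 and 1208 bp, and the 11 prebound unmarked peaks are few.

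Named sites in each class are those of highest pileup among peaks of fold enrichment of at least 5, a limit that leaves out 2 prebound peaks on chromosome 17 with pileups of 553 and 512 and fold enrichments of 1.93 and 1.85. By this rule, the 5 highest prebound sites were all promoter-like and carried H3K4me3 and H3K27ac in both genotypes. H3K4me1 was profiled in wild-type only. The first lay on chromosome 13 from 38749855 to 38751188, with a Myc pileup of 375 in tet-Myc, 17 in wild-type, 230 in tet-YAP and 520 in the tet-Myc/YAP list. The second, on chromosome 13 from 73468179 to 73469468, had 367 in tet-Myc, 17 in wild-type, 288 in tet-YAP and 441 in the tet-Myc/YAP list. The third, on chromosome 11 from 6426521 to 6429363, had 344, 16, 246 and 471 in these lists. Pileups of different libraries are not on 1 scale, so they are given side by side and not ranked. The site on chromosome 12 from 56403071 to 56404817 had a pileup of 336 in tet-Myc and held 3 wild-type peaks, of which the highest reached 17. The site on chromosome 15 from 43113347 to 43114644 had 313 and also held 3 wild-type peaks, the highest of 22. All 5 overlapped a wild-type H3K4me3, H3K4me1 and H3K27ac region, a TEAD peak and an RNA polymerase II peak.

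Newly bound promoter-like sites reached high pileups as well. The 5 highest by this rule lay on chromosome 15 from 75948115 to 75949815 (pileup 262), chromosome 2 from 128926513 to 128927439 (243), chromosome 3 from 135147664 to 135149507 (224), chromosome 11 from 120946521 to 120948148 (214) and chromosome 4 from 45119632 to 45121307 (214). All 5 were Myc peaks in the tet-YAP list, with pileups of 57 to 113, and in that of tet-Myc/YAP, with pileups of 206 to 334. Each was on an H3K4me3 and an H3K27ac region in both genotypes. Their nearest wild-type Myc summits were 28377 to 345539 bp away. The chromosome 11 site had neither a TEAD nor an RNA polymerase II peak in wild-type but had both in tet-Myc. The chromosome 4 site, conversely, had a TEAD peak in wild-type and none in tet-Myc.

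By the same rule, the highest newly bound distal site lay on chromosome 1 from 51906189 to 51907405, with a pileup of 271 and a fold enrichment of 68.4. The next 4 lay on chromosome 2 from 134549352 to 134550390 (pileup 195), chromosome 8 from 72887874 to 72888881 (189), chromosome 8 from 129331060 to 129333271 (185) and chromosome 17 from 5206089 to 5207444 (180). All 5 carried H3K27ac in both genotypes and H3K4me3 in neither. Their pileups were at least 44 in tet-YAP and at least 156 in tet-Myc/YAP. They differed in other respects: the chromosome 8 site at 72887874 had no wild-type H3K4me1 region, the 2 sites on chromosome 8 had no wild-type TEAD peak, and wild-type RNA polymerase II was called only at the chromosome 8 site at 129331060 and at the chromosome 17 site.

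Of the 1119 newly bound unmarked peaks, 69 overlapped an H3K4me3 region of the tet-Myc list (6.17%, 4.90 to 7.73) and 282 an H3K27ac region of that list (25.2%, 22.7 to 27.8). Among the 5 highest by the same rule, 2 overlapped tet-Myc H3K4me3. One lay on chromosome 5 from 136577961 to 136578769 (pileup 134). The other lay on chromosome 9 from 72761062 to 72762168 (127). The site on chromosome 13 from 56152714 to 56153415 (112) overlapped no mark, TEAD or RNA polymerase II peak in either genotype. A site on chromosome 7 from 17436918 to 17437757 (106) and another on chromosome 12 from 109913772 to 109914644 (100) carried H3K27ac in tet-Myc and not in wild-type. The lists come from 1 library each, and whether these marks differ between animals of the 2 genotypes was not tested.

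Prebound promoters were more often sites of TEAD and RNA polymerase II than newly bound promoters. A wild-type TEAD peak overlapped 94.2% of the prebound promoter-like peaks (93.2 to 95.01) and 64.9% of the newly bound ones (64.2 to 65.6). A wild-type RNA polymerase II peak overlapped 96.4% (95.6 to 97.1) and 70.1% (69.4 to 70.7). Wild-type H3K27ac covered nearly all peaks of both kinds, 98.6% and 94.5%. At distal sites the shares were lower but ordered alike, with TEAD at 78.0% of prebound (72.1 to 82.96) and 51.5% of newly bound peaks (50.5 to 52.4), and RNA polymerase II at 65.0% (58.6 to 71.0) and 25.3% (24.4 to 26.1).

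The difference was also present among peaks of like strength. The tet-Myc list was sorted by falling pileup and divided into 10 equal parts. In the first of these, a wild-type TEAD peak overlapped 96.5% of 1072 prebound promoter-like peaks (95.2 to 97.4) and 81.8% of 1753 newly bound ones (79.9 to 83.5). Their median pileups still differed there, at 111 and 92. In the fourth, where the median pileups were 43 and 42, the shares were 97.7% of 215 (94.7 to 99.0) and 71.7% of 1941 (69.6 to 73.6). Median widths there were 1037 and 860 bp, and the part of width was not tested.

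The share occupied by Myc in tet-YAP liver, where no Myc transgene was present, was higher among prebound than among newly bound promoters. Of the prebound promoter-like peaks, 88.2% (86.9 to 89.4) overlapped a tet-YAP Myc peak, against 38.9% (38.2 to 39.6) of the newly bound ones. In number the newly bound were more, at 7133 against 2235. In the fourth of the 10 parts by pileup the shares were 81.9% (76.2 to 86.4) and 44.8% (42.6 to 47.0). The tet-Myc/YAP list held 97.5% of the prebound and 88.2% of the newly bound promoter-like peaks. Over all pileups, the gap between prebound and newly bound promoters was thus wide in the tet-YAP list and narrow in the tet-Myc/YAP list. Among the peaks of highest pileup it was small in the tet-YAP list too, where most newly bound promoters also had a Myc peak. These lists differ in length too, with 13226 and 30289 Myc peaks, and a longer list overlaps more peaks of either kind. The part of length was not tested.

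Sites with higher pileup in wild-type tended to have higher pileup in tet-Myc. Prebound peaks whose highest wild-type peak had a pileup of 7 to 9 had a median pileup of 52 in tet-Myc (612 peaks). The median was 59 for a wild-type pileup of 10 to 11 (959 peaks), 71 for 12 to 14 (822 peaks), 91.5 for 15 to 19 (316 peaks) and 134 for 20 or more (60 peaks). The medians rose over all 5 classes, but the quartiles of neighbouring classes overlapped, and Spearman's rho over the 2769 prebound peaks was 0.286. The points share 2 libraries and the wild-type pileups span few whole numbers, so rho is given as a description only.

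Wild-type summits were spread widely around the tet-Myc summits. Over 3684 overlapping pairs, the distance between the wild-type and the tet-Myc summit had a median of 201.5 bp, 23.9% of pairs lay within 100 bp (22.6 to 25.3) and 39.7% lay at 150 to 300 bp (38.1 to 41.3). For tet-Myc/YAP against tet-Myc the median was 65 bp with 64.4% within 100 bp, and for tet-YAP it was 86 bp with 54.6%. In bins of 50 bp the wild-type summits were spread nearly evenly, with 5.51% to 7.63% of pairs in each bin out to 300 bp on either side, whereas the 2 other lists peaked at the tet-Myc summit. In 571 tet-Myc peaks that held exactly 2 wild-type peaks, the wild-type summits were a median of 319 bp apart (quartiles 275.5 and 393.5), near the fragment size of 330 bp estimated for tet-Myc. In 412 of these 571 (72.2%, 68.3 to 75.7) the 2 summits lay on opposite sides of the tet-Myc summit. Such a pair counts as 2 wild-type peaks in the list. Of the prebound peaks, 2081 held 1 wild-type peak and 117 held 3 or more, and joining wild-type summits within 500 bp of each other left 3467 wild-type sites. Prebound peaks holding 2 wild-type peaks had a median pileup of 85 in tet-Myc, against 58 for those holding 1.

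Most of the wild-type peaks were found again in tet-Myc. Of the 4602 wild-type peaks, 3681 overlapped a tet-Myc peak, which is 80% (78.8 to 81.1). Of the 3467 joined sites, 2889 did (83.3%). The share was 88.8% of the promoter-like wild-type peaks (87.8 to 89.8), 42.1% of the 658 distal ones (38.4 to 45.9) and 9.6% of the 125 unmarked ones (5.58 to 16.0). The peaks found again and those not found had the same median pileup of 11 in wild-type, although the 113 unmarked ones that were not found had a median of 31.

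The share of wild-type peaks found again was lower in dense runs and on wide stretches of RNA polymerase II. Wild-type peaks were grouped into runs where neighbours were at most 5000 bp apart, a choice made after the values had been seen. Of 2117 single peaks 89.7% were found in tet-Myc (88.3 to 90.9), and of 1210 peaks in pairs 93.2% (91.7 to 94.5). Of the 674 peaks in the 28 runs of 10 or more, 32.0% were found (28.6 to 35.7). Of the 921 peaks that were not found, 458 lay in these long runs, 219 were single and 82 were in pairs.

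The wild-type RNA polymerase II list had a median peak width of 647 bp and held 236 peaks of 10000 bp or more, the widest 55197 bp. Such wide polymerase peaks lie over the bodies of heavily transcribed genes as a rule. Of the 942 wild-type Myc peaks on these stretches 37.5% were found in tet-Myc (34.4 to 40.6), and of the 3660 off them 90.9% (89.96 to 91.8). The 942 peaks lay on 126 of the stretches, so intervals that count each peak as independent are too narrow here as well. Of the 921 wild-type peaks that were not found, 589 lay on these stretches (64.0%, 60.8 to 67.0), and 429 lay both on them and in runs of 10 or more. Single peaks also differed by stretch, with 55.4% of 65 found on the stretches (43.3 to 66.8) and 90.7% of 2052 off them (89.4 to 91.9). The 381 distal ones among the 921 overlapped a wild-type RNA polymerase II peak in 92.7% of cases (89.6 to 94.9) and a wild-type TEAD peak in 16.5% (13.1 to 20.6). The 277 distal wild-type peaks that were found again overlapped TEAD in 70.8% (65.1 to 75.8) and RNA polymerase II in 64.3% (58.5 to 69.7). Of all wild-type peaks that were not found in tet-Myc, 13.0% were found in tet-Myc/YAP (11.01 to 15.4) and 35.1% in tet-YAP (32.1 to 38.2). Of the wild-type peaks that were found again in tet-Myc, 94.3% were found in tet-Myc/YAP and 82.3% in tet-YAP. The part of transcription at these stretches in the wild-type signal was not tested.

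Individual runs show how local this was. The longest run lay on chromosome 3 from 146260892 to 146296003 and held 59 wild-type peaks with pileups of 8 to 17, of which 1 was found in tet-Myc. It lay on a wild-type RNA polymerase II peak of 23879 bp. A run of 57 peaks on chromosome 2 from 31327576 to 31354222, on a polymerase peak of 52687 bp, also had 1 peak found. A run of 56 peaks on chromosome 1 from 67173067 to 67199220 had 12 found. The next, on chromosome 5 from 146786959 to 146811558, had 2 of 39 found. On chromosome 4 from 49548280 to 49561813, by contrast, 17 of 36 peaks were found. The tet-Myc list held 2, 1, 4, 1 and 5 Myc peaks in these 5 runs, so each was occupied in tet-Myc at few places. The widest RNA polymerase II peak under them, in the same order, was 23879, 52687, 39701, 36297 and 15996 bp in wild-type. In tet-Myc it was 16647, 15410, 30964, 10455 and 15930 bp, narrower in each but nearly equal in the last. These runs were chosen as the longest of the wild-type Myc list. The polymerase lists as a whole differed the other way, with 660 peaks of 10000 bp or more in tet-Myc and 236 in wild-type. They rested on 50.6 and 20.9 M tags.

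**Figure D2:**
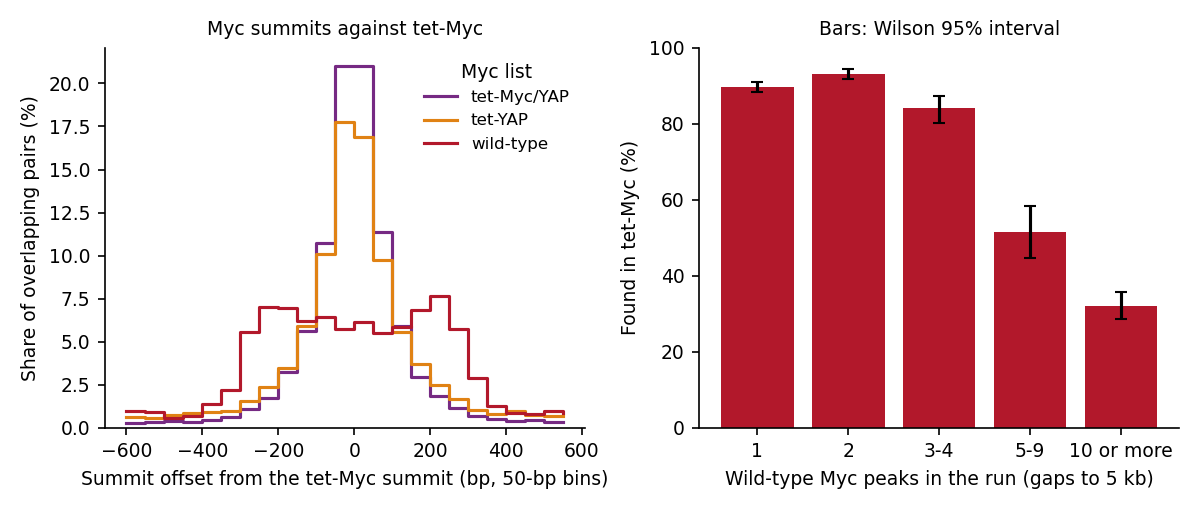
Left, share of overlapping peak pairs (%) by the offset of the summit of another Myc list from the tet-Myc summit (bp, bins of 50 bp), with wild-type summits spread over a plateau and the 2 other lists peaking at 0. Right, share of wild-type Myc peaks found in tet-Myc (%, bars with Wilson 95% intervals) by the number of wild-type peaks in the run, 89.7% for single peaks and 32.0% in runs of 10 or more. The intervals count each peak as independent and are too narrow for the long runs.

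By the naming rule, the 5 highest wild-type peaks with no tet-Myc peak lay on chromosome 18 from 68851749 to 68851825 (pileup 87), chromosome X from 120775193 to 120775346 (60), chromosome 5 from 37052216 to 37052295 (53), chromosome X from 121210569 to 121210622 (47) and chromosome 18 from 7322667 to 7322728 (46). They were 54 to 154 bp wide. The chromosome 5 site was distal and was a Myc peak of tet-YAP, with a pileup of 79, and of tet-Myc/YAP, with 30. The other 4 were unmarked and had a Myc peak in no other genotype. They belong to a small class: of the 100 wild-type peaks with a pileup over 25, 69 were not found in tet-Myc.

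Most wild-type H3K4me3 regions held a Myc peak of tet-Myc liver. Of the 18849 wild-type H3K4me3 regions, 13326 held at least 1 tet-Myc peak, which is 70.7% (70.0 to 71.3). In wild-type 2507 held a Myc peak (13.3%, 12.8 to 13.8). The tet-Myc list is far longer than the wild-type one. Cut to as many peaks as the wild-type list holds, by falling pileup, it occupied 19.6% of the H3K4me3 regions (19.03 to 20.2) and 3.98% of the distal H3K4me1 regions described next (3.62 to 4.38). Of the 21669 wild-type H3K4me1 regions 69.9% (69.3 to 70.6) held a tet-Myc peak and 11.4% (10.99 to 11.8) a wild-type one. This share mixes 2 kinds of region. The 11554 H3K4me1 regions that touched an H3K4me3 region were occupied in 91.3% of cases in tet-Myc and 20.3% in wild-type. The 10115 distal H3K4me1 regions were occupied in 45.6% of cases in tet-Myc (44.6 to 46.5) and in 1.27% in wild-type (128 regions, 1.07 to 1.50).

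Occupied regions often held several Myc peaks in tet-Myc liver. Among the H3K4me3 regions 8931 held 1 tet-Myc peak, 2723 held 2, 936 held 3, 383 held 4 and 353 held 5 or more, so that 33.0% of the occupied regions held more than 1 (32.2 to 33.8). Among the distal H3K4me1 regions 3652 held 1, 714 held 2, 165 held 3, 51 held 4 and 26 held 5 or more, and 20.7% of the occupied ones held more than 1 (19.6 to 21.9). In wild-type 28.8% of the occupied H3K4me3 regions held more than 1 peak, which fell to 8.34% once summits within 500 bp were joined. The joined value avoids counting the pairs described above as 2 sites. Distal regions with more than 1 joined wild-type site numbered 2.

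**Figure D3:**
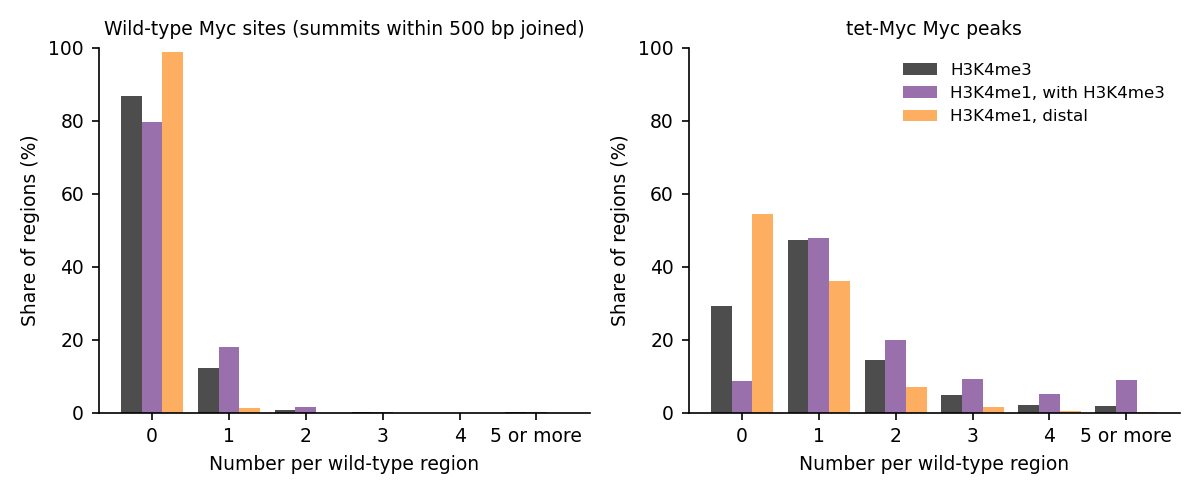
Share of wild-type regions (%) by the number of Myc sites each held in wild-type (left, summits within 500 bp joined) and in tet-Myc (right), for 18849 H3K4me3 regions, 11554 H3K4me1 regions that overlap H3K4me3 and 10115 distal H3K4me1 regions. Empty regions were the largest class of every kind in wild-type, and in tet-Myc 29.3% of H3K4me3 and 54.4% of distal H3K4me1 regions were empty.

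Wider regions held more peaks, and promoters were occupied more often than distal regions of the same width. Among regions of 2000 to 4000 bp (lower bound excluded, as in the other classes), 71.7% of the H3K4me3 regions (70.6 to 72.7) and 42.0% of the distal H3K4me1 regions (40.3 to 43.7) held a tet-Myc peak. Among those of 4000 to 8000 bp the shares were 82.6% (81.6 to 83.6) and 51.2% (49.4 to 53.0), and among those of 8000 to 16000 bp 87.2% (85.6 to 88.7) and 56.6% (54.1 to 59.1). The 325 H3K4me3 regions above 16000 bp were occupied in 72.9% of cases (67.8 to 77.5), a lower share than in the classes from 4000 to 16000 bp. On average over all regions, empty ones included, promoters with a wild-type Myc peak held more tet-Myc peaks than those without at the same width. The mean was 1.10 against 0.815 peaks at 2000 to 4000 bp, and 3.01 against 2.32 at 8000 to 16000 bp. Empty regions weigh on these means. Over all widths, 2467 of the 2507 promoters with a wild-type peak held a tet-Myc peak, against 10859 of the 16342 without. Whether the order holds among occupied promoters alone was not tested.

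Promoters without a Myc peak in tet-Myc liver less often carried other signs of activity. Of the 5523 H3K4me3 regions with no tet-Myc peak, 38.7% overlapped a wild-type H3K27ac region (37.5 to 40.0), 25.7% a TEAD peak (24.6 to 26.9) and 20.5% an RNA polymerase II peak (19.5 to 21.6). Of the 8931 regions with 1 peak, 89.9% overlapped H3K27ac, 80.3% TEAD and 77.3% RNA polymerase II. Of the 1672 with 3 or more, 99.9%, 95.5% and 95.9% did. The shares rose with the number of Myc peaks, and so did the median width, from 2292 bp in empty regions to 8904 bp in those with 3 or more. Distal H3K4me1 regions followed the same order, with H3K27ac at 45.3% of the empty ones (44.0 to 46.6) and 96.3% of those with 3 or more peaks (93.1 to 98.0), and TEAD at 36.5% and 92.1%. The part of width in these shares was not tested.

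Where prebound and newly bound peaks shared a promoter, the prebound peak was usually the higher one. Of the 2400 H3K4me3 regions with a prebound peak, 821 also held a newly bound peak (34.2%, 32.3 to 36.1). Prebound peaks made up 36.0% of the 2573 peaks in these 821 regions but were the highest peak in 585 of them (71.3%, 68.1 to 74.2). Among the distal H3K4me1 regions 28 were mixed in this way, and the highest peak was prebound in 19. A wider peak has more room to meet a wild-type peak here too, and the part of width was not tested. In H3K4me3 regions with several peaks, neighbouring summits were a median of 1687.5 bp apart (quartiles 1111 and 2739), and the second peak reached a median of 0.667 of the pileup of the highest (quartiles 0.475 and 0.828). The second peak cannot exceed the highest by definition, so the ratio only describes how unequal they were.

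The region with the most tet-Myc peaks among the H3K4me3 regions lay on chromosome 6 from 119345004 to 119371667. It held 15 tet-Myc peaks with pileups of 19 to 75 and no wild-type peak, and all 15 lay on wild-type H3K27ac. A region on chromosome 12 from 82044762 to 82078150 also held 15 tet-Myc peaks, of pileup 17 to 57, of which 3 were prebound. The next, on chromosome 12 from 7982764 to 8004814, held 14 of pileup 17 to 31, of which 2 were prebound. The median pileup of the peaks in these 3 regions was 29, 25 and 24.5, below the median of 34 of the whole list. Of their tet-Myc peaks 11, 9 and 4 were found in tet-Myc/YAP.

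Among the distal H3K4me1 regions, that on chromosome 4 from 144557569 to 144679858 held 13 tet-Myc peaks over 122290 bp, with pileups of 20 to 55. A region on chromosome 17 from 85434535 to 85458330 and another on chromosome 13 from 81459804 to 81487731 held 9 and 7. None of the 3 held a wild-type Myc peak. A wild-type TEAD peak overlapped 8, 4 and 6 of their tet-Myc peaks, and 12, 8 and 6 were found in tet-Myc/YAP.

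When the tet-Myc peaks were taken in order of falling pileup, the kind of site changed steadily along the list. In the first of the 10 equal parts of the list, with pileups of 74 to 654, 86.7% of the peaks were promoter-like (85.5 to 87.8), 12.5% distal (11.5 to 13.7) and 0.767% unmarked. In the last, with pileups of 15 to 22, 52.3% were promoter-like (50.6 to 54.0), 41.4% distal (39.8 to 43.1) and 6.23% unmarked (5.45 to 7.11). The promoter-like share was lower in each of them than in the one before, although the last 3, at 52.3% to 52.5%, did not differ beyond their intervals. The prebound share was 34.1% in the first (32.5 to 35.8), 15.4% in the second (14.2 to 16.7), 5.22% in the fifth and 1.50% in the last (1.14 to 1.98).

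The weaker peaks were also found less often in the other Myc lists. A tet-Myc/YAP Myc peak overlapped 99.97% of the peaks in the first, 92.7% in the fifth (91.8 to 93.5) and 42.9% in the last (41.2 to 44.6). A tet-YAP Myc peak overlapped 90.9% in the first (89.9 to 91.9), 27.1% in the fifth (25.6 to 28.7) and 7.43% in the last (6.58 to 8.38). A wild-type TEAD peak overlapped 85.2% in the first (83.9 to 86.4) and 37.1% in the last (35.5 to 38.8). The overlap with the tet-Myc/YAP list, of 30289 peaks, thus fell late along the ranking. That with the tet-YAP list, of 13226 peaks, fell from the second of the 10 on. The part of list length was not tested.

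**Figure D4:**
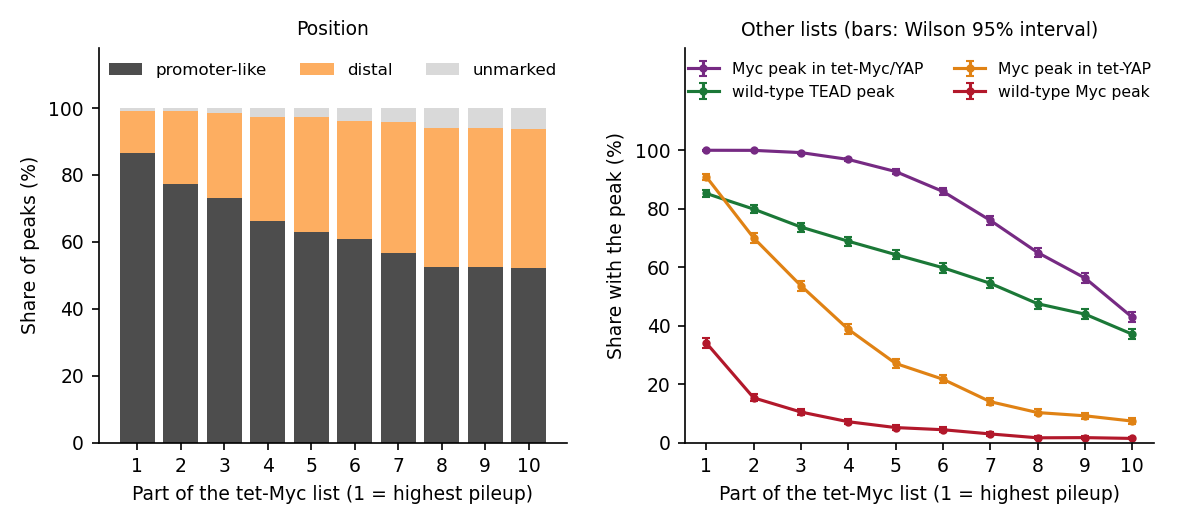
The 32589 tet-Myc Myc peaks in 10 equal parts by falling pileup (horizontal axes). Left, share of promoter-like, distal and unmarked peaks (%, stacked bars), with promoter-like peaks going from 86.7% to 52.3%. Right, share of peaks (%, points with Wilson 95% intervals) that overlap a Myc peak of tet-Myc/YAP, tet-YAP or wild-type, or a wild-type TEAD peak, each lower in the last than in the first.

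Promoters filled before distal sites. A region was called filled at the rank of its highest tet-Myc peak, and its share was counted over the regions filled in the end. After the 1000 highest peaks, 904 H3K4me3 regions and 49 distal H3K4me1 regions were filled. The rank at which 10% were filled was 1506 for promoters and 5121 for distal H3K4me1 regions. The rank at which 50% were filled was 9368 for promoters, where the pileup was 47, and 16991 for distal regions, where it was 33. When promoters had reached 50%, 23.3% of the distal H3K4me1 regions (22.1 to 24.5) and 25.4% of the distal H3K27ac regions (23.9 to 27.01) were filled. The order held along the list, as 75% was reached at rank 17284 by promoters and at 24273 by distal H3K4me1 regions, and 90% at 24719 and 28730.

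**Figure D5:**
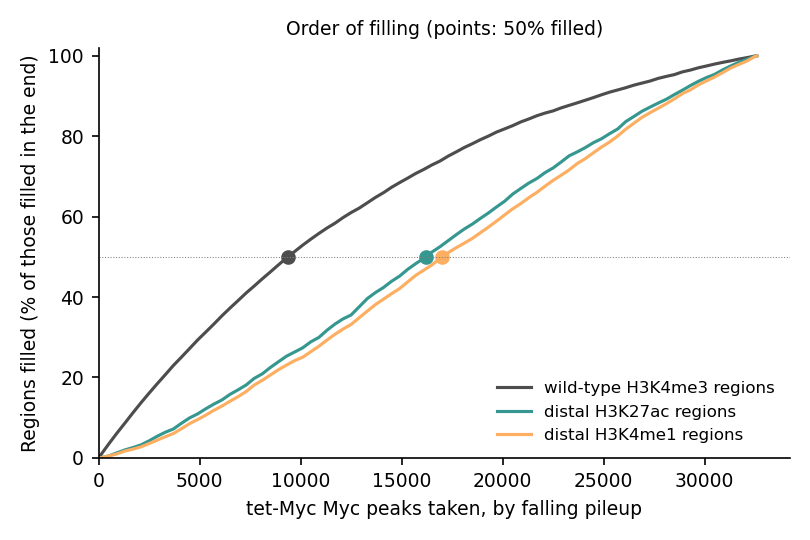
Share of regions filled (%, of those filled in the end) against the number of tet-Myc Myc peaks taken by falling pileup, for 13326 H3K4me3, 3093 distal H3K27ac and 4608 distal H3K4me1 regions. Points mark 50%, reached at rank 9368, 16219 and 16991.

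The order was the same among regions of like width. For regions of 2000 to 4000 bp that were filled in the end, the median rank of filling was 10019 for promoters and 18165 for distal H3K4me1 regions. For those of 4000 to 8000 bp it was 8320.5 and 16657, and for those of 8000 to 16000 bp 6603.5 and 15175. Wider regions filled earlier in both kinds. Over all widths, promoters with a wild-type Myc peak filled earlier, at a median rank of 3706 against 10937 for those without. Distal H3K4me1 regions with a wild-type Myc peak had a median rank of 11357 (107 regions), against 17163 without, so that distal regions bound in wild-type filled at about the rank of promoters that were not.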

How the data were processed

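Peak lists of 23 liver ChIP-seq libraries were at hand, and 13 were used. The sample titled as an input was not analysed here. The submitters' processing notes name BWA 0.6.2, SAMtools, MACS2 2.0.9 and the mm9 build. Each narrow list was called, per the file headers, on 1 library with a p-value cutoff of 1.00e-05 and at most 2 duplicate tags per position. The deposited narrow lists give 4 measures per peak, all computed by the authors with their caller, namely the summit's pileup signal, a fold enrichment (ratio to the control), and −log10 p and −log10 q values. The broad histone lists were deposited with a score of unstated scale that was not used for any value. The sources used here do not give their depth. Narrow lists rested on 16.9 to 50.6 M tags.

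Groups were taken from the sample titles. Overlaps of at least 1 bp, distances and ranks were computed in Python 3.11.15 (numpy 2.4.6, pandas 2.3.3), and intervals came from scipy 1.17.1. The code passed 6 of 6 checks, which used simulated peaks, a set share, and the overlap count of bedtools on the tet-Myc and wild-type Myc lists. Figures were drawn with matplotlib 3.10.9. Members, lists and alternatives were chosen with earlier results of these data known. Named sites were the 5 peaks of highest pileup and fold enrichment of at least 5 in each class, and the 3 regions of each kind with the most tet-Myc peaks. The runs, the RNA polymerase II stretches, the like-strength comparison and the odd sites were chosen after their values were seen. Planned gene lists were not run, as no mm9 annotation was used here. With 1 library per group there was no test and no p-value.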

Additional observations from a re-analysis of the deposited data

How the results depend on the processing

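No paired analysis was possible because each group has 1 library and the labels give no replicate numbers. Of 35 alternatives, 19 moved a value beyond its counting interval. The cause of these moves was not tested, except that a cut list holds fewer peaks. A reversal was defined only for the promoter-like difference between the first and last of the 10 parts and for the ratio of median fold enrichment. Among the alternatives of these results, 0 were reversed. The prebound share (8.5%) was 8.01% with summits within 500 bp, 1.20% with the tet-Myc summit inside the wild-type peak, 0.745% at −log10 q of at least 10 in both lists, and 29.4% with the tet-Myc list cut to as many peaks as wild-type holds. The share of wild-type peaks found (80%) was 70.6%, 74.2% and 42.3% with the summit, −log10 q and cut-list settings. In alternatives added after seeing the data it was 83.3% with joined summits and 90.9% without the peaks on RNA polymerase II stretches of 10000 bp or more. With the −log10 q threshold and the cut list, 64.1% and 19.6% of H3K4me3 regions and 35.7% and 3.98% of distal H3K4me1 regions were occupied. At that −log10 q, 26.4% of occupied H3K4me3 and 16.7% of occupied distal regions held more than 1 peak, and the ratio of median fold enrichment, prebound over newly bound, was 2.72 in place of 1.86. The promoter-like share was 37.6 points higher in the first than in the last of the 10 parts with tet-Myc H3K4me3 regions, and 34.4 points with wild-type ones. The distal share filled when promoters reached 50% (23.3%) was 25.4% with H3K27ac regions and 21.9% with regions of 2000 to 8000 bp only, the latter added after seeing the data. The wild-type list had more tags than the tet-Myc list but a fragment size of 51 bp against 330 bp. Calling it again with a set fragment size could change which sites count as prebound, and this was not run. With 1 library, variation between animals is unknown.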

Other observations

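Some peaks of both lists had high pileup and low fold enrichment, or lay where no mark was called. Of the 69 wild-type peaks with a pileup over 25 that were not found in tet-Myc, 42 lay on chromosome X. A cluster of 36 wild-type peaks on chromosome X from 120114035 to 121314629 had pileups of 28 to 64 and a median fold enrichment of 4.67, and 0 of the 36 overlapped a wild-type H3K4me3, H3K4me1 or H3K27ac region. In the tet-Myc list, 32 peaks had a fold enrichment under 3. Among them were 4 peaks on the mitochondrial genome, with pileups of 647 to 654 and fold enrichments of 1.28 to 1.38, and 2 neighbouring peaks on chromosome 17 from 39979877 to 39984026 and from 39984118 to 39985844, with pileups of 553 and 512 and fold enrichments of 1.93 and 1.85. The chromosome 17 peaks held 11 and 4 wild-type Myc peaks.

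Promoters on chromosome X were occupied less often than those on autosomes. A tet-Myc peak overlapped 50.7% of the 505 H3K4me3 regions on chromosome X (46.3 to 55.0) and 71.2% of the 18344 on autosomes (70.6 to 71.9), with means of 0.659 and 1.12 peaks per region. Of distal H3K4me1 regions, 28.9% of 83 (20.3 to 39.4) and 45.7% of 10032 (44.7 to 46.7) were occupied. Wild-type H3K27ac overlapped 51.9% of the H3K4me3 regions on chromosome X (47.5 to 56.2) and 77.6% of those on autosomes, and wild-type TEAD 34.5% (30.4 to 38.7) and 67.5%. The regions had median widths of 2753 bp on chromosome X and 3382 bp on autosomes. The part of these marks and of region width was not tested.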
